A study of Rattus norvegicus with 20 samples.

Results

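Chemokines are small secreted proteins that direct the movement of leukocytes, and they act through a family of G protein-coupled receptors. The genes described here are the protein-coding genes of the deposited expression table whose symbol begins with Ccl, Cxcl, Ccr, Cxcr or Ackr followed by a number, together with Cx3cl1, Cx3cr1, Xcl1 and Xcr1. The rule found 54 of the 30560 genes in the table, of which 23096 are protein coding. They comprise 18 CC ligands, 12 CXC ligands, 2 ligands of the CX3C and XC classes, 10 CC receptors, 6 CXC receptors, 2 receptors of the CX3C and XC classes and 4 atypical receptors. Ccl22 matches by name but is listed as a long non-coding RNA and was therefore left out.

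Kidney cortex and left ventricle were taken from 10 male rats that the series title calls hypertensive, with the genotype given as WT and no strain named. Every rat carried a blood pressure telemeter implanted at 8 weeks of age and then ate food with 4% NaCl for 3 weeks, so no group on ordinary salt is included. During those 3 weeks a subcutaneous osmotic minipump gave 5 rats (RB030 to RB034) vehicle and 5 rats (RB035 to RB039) Maresin 1 (MaR1) at 1.3 µg/kg/day or less. MaR1 is a lipid mediator that macrophages make from docosahexaenoic acid. From every rat 1 poly-A RNA library was made for each organ, giving 20 libraries in 4 groups of 5 separate animals.

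As background, a chemokine is named for the spacing of its first cysteines, and many bind several receptors. CCL2, CCL7 and CCL12 act on CCR2 of monocytes, CXCL9, CXCL10 and CXCL11 on CXCR3 of activated T cells, and CXCL12 on CXCR4. Atypical receptors bind chemokines without classical G protein signalling and take them up or carry them across cells. In salt-sensitive hypertension, kidney and heart are known to take up macrophages and T cells, and CCL2 and its receptor have been studied widely there.

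Between 19383232 and 30342034 fragments per library were assigned to genes. Values are FPKM, fragments scaled by gene length and by a library size that the authors set. At 1 kb of gene length, each unit of FPKM equalled between 19.7 and 34.9 fragments, so members well under 1 FPKM rest on few fragments. The organs matched their labels: summed cardiomyocyte markers (9 genes) were 13676 to 22735 FPKM in hearts and 0.885 to 1.83 in kidneys. Summed proximal tubule markers (15 genes) were 8794 to 15833 FPKM in kidneys. In hearts they were 266 to 323 FPKM with vehicle and 352 to 435 FPKM with MaR1, without overlap. The part of this split in the heart values of members was not tested. Several libraries stood apart in their marker levels. In the kidney of RB039 the summed adipocyte markers were 659 FPKM, against 14.9 to 80.2 in the other 9 kidneys, and urothelium markers were 87.7. The kidney of RB030 had the lowest proximal tubule sum, and the hearts of RB033, RB034 and RB035 had atrial marker sums of 10153, 5390.0 and 5482 FPKM, against 391 to 3322 in the other 7. The counts of members called for MaR1 against vehicle are given with and without the kidneys of RB030 and RB039 and with and without these 3 hearts. Leaving out the 3 hearts together was not run for the organ comparisons or the interaction.

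A set of neighbouring genes that share a receptor is shown first. Cxcl11, Cxcl10 and Cxcl9 lie in this order on chromosome 14 between 15689424 and 15728435 in the coordinates of the table. The sources used here do not give its genome build. The promoters of these genes are shown because the genes share a locus but differed in direction between organs, as described further on. Each is the 250 bases before the annotated start in RefSeq's assembly GRCr8, plus strand, read 5′ to 3′. The coordinates are chr14:16006916-16007165 for Cxcl9, chr14:15988816-15989065 for Cxcl10 and chr14:15973478-15973727 for Cxcl11, which belong to GRCr8 and are not on the scale of the table. Capitals mark matches to a kappa B motif (GGGANNNNCC, both strands), an interferon response motif (GAAANNGAAA, both strands) and a TATA box (TATAAA, sense strand only).
Cxcl9: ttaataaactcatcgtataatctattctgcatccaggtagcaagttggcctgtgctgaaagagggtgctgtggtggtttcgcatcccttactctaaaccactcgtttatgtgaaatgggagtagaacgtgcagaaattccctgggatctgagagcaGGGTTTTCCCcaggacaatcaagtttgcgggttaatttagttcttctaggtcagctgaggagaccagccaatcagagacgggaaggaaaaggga
Cxcl10: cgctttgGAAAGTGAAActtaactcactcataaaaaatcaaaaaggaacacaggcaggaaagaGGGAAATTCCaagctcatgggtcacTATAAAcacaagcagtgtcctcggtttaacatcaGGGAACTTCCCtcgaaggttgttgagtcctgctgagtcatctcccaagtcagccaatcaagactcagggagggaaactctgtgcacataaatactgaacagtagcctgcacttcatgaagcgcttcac
Cxcl11: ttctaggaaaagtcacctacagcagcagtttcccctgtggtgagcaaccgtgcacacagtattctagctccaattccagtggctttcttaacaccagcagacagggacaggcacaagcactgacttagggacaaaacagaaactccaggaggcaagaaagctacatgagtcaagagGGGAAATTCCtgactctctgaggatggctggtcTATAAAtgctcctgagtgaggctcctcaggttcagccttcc
The Cxcl9 window held 1 kappa B match, whose first base lay 94 bases before the start, and neither of the other motifs. The Cxcl10 window held 3 kappa B matches, at 187, 128 and 127 bases before the start, of which the last pair overlap. It also held the interferon response motif at 243 bases and a TATA box at 162 bases. The Cxcl11 window held 1 kappa B match at 74 bases and a TATA box at 41 bases. Of the 54 members, 40 had a promoter in the RefSeq table. Among these 40, the kappa B motif occurred in 15, the interferon response motif in 2 (Ccl19 and Cxcl10) and the TATA box in 10. Over all 33469 promoters of the same length the shares were 16.4%, 3.41% and 8.06%. These are letter matches only.

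In both organs a few ligands made up most of the chemokine signal, and many members were near zero. Of the 54 members, 28 reached a mean of 1 FPKM in at least 1 group, and 26 did not. The 28 were 10 of 18 CC ligands, 7 of 12 CXC ligands, both ligands of the CX3C and XC classes, 3 of 10 CC receptors, 1 of 6 CXC receptors, 1 of 2 receptors of the CX3C and XC classes and all 4 atypical receptors. With vehicle, 21 members (38.9%) had a mean of at least 1 FPKM in the kidney and 26 (48.1%) in the heart. Among all protein-coding genes these shares were 50.9% and 50.5%. Over the 5 vehicle animals the 54 members summed to 214 ± 32.3 FPKM in the kidney and 273 ± 46.3 FPKM in the heart (SD, n = 5). The 5 highest members held 66.3% of that sum in the kidney and 59.2% in the heart.

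The order of levels differed between the organs. In vehicle kidneys Cxcl16 was highest at 64.9 ± 7.72 FPKM, followed by Cx3cl1 at 26.1 ± 2.39, Cxcl12 at 24.2 ± 3.72, Cxcl14 at 14.02 ± 2.96 and Cxcl11 at 12.4 ± 5.67 (SD, n = 5). The lowest Cxcl16 value lay above every Cx3cl1 value, whereas the ranges of Cx3cl1 and Cxcl12 overlapped, as did those of Cxcl14 and Cxcl11. In vehicle hearts Ccl21 was highest at 65.2 ± 32.2 FPKM, followed by Cxcl12 at 44.2 ± 5.07, Cxcl11 at 20.7 ± 6.92, Cxcl16 at 20.1 ± 3.20 and Ackr3 at 11.7 ± 3.13. Ccl21 had the widest spread of these and overlapped Cxcl12, and the ranges of Cxcl11 and Cxcl16 overlapped as well. With MaR1 the same 5 led in the heart. In the kidney Cxcl16 led again, and Ccl21 took the place of Cxcl11 among the 5.

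**Figure D1:**
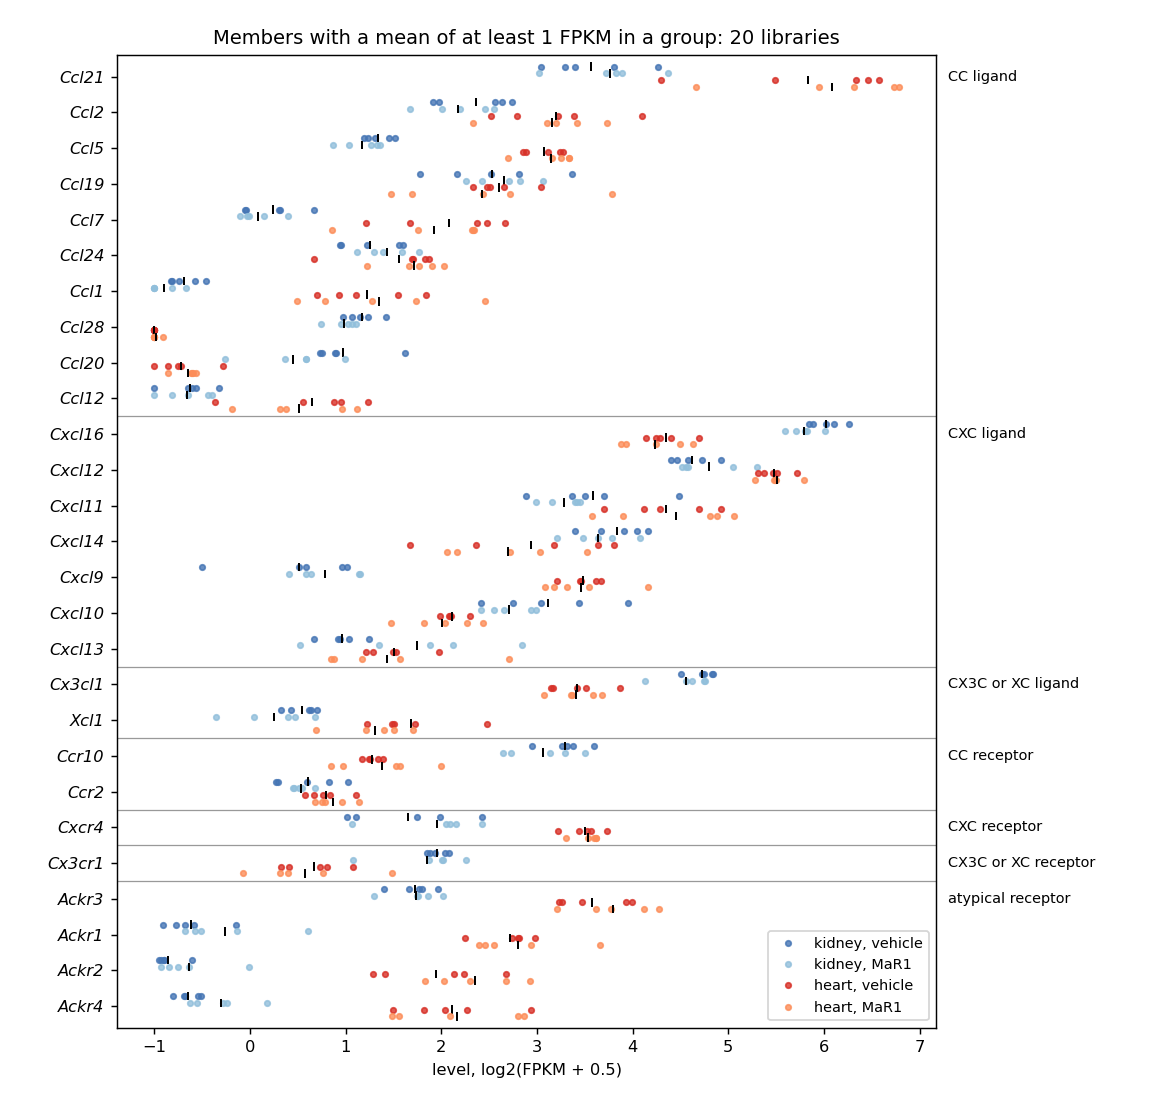
Levels of 27 of the 28 members with a mean of at least 1 FPKM in a group, on the log2(FPKM + 0.5) scale (horizontal axis), for each of the 20 libraries (points, coloured by organ and treatment; black ticks are group means). Genes are grouped by role and ordered by level. The kidney and heart points separate, with hearts higher, for Ackr1, Ackr2, Ackr3, Ackr4, Ccl1, Ccl5, Ccl7, Cxcl9 and Cxcr4. They separate with kidneys higher for Ccl20, Ccl28, Ccr10, Cx3cl1 and Cxcl16. Vehicle and MaR1 points overlap in every row.

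The 26 members under 1 FPKM in all 4 groups were 8 CC ligands (Ccl3, Ccl4, Ccl9, Ccl11, Ccl17, Ccl25, Ccl26 and Ccl27), 5 CXC ligands (Cxcl1, Cxcl2, Cxcl3, Cxcl6 and Cxcl17), 7 CC receptors (Ccr1l1, Ccr3, Ccr4, Ccr6, Ccr7, Ccr8 and Ccr9), 5 CXC receptors (Cxcr1, Cxcr2, Cxcr3, Cxcr5 and Cxcr6) and Xcr1. Among them are the neutrophil attractants of the Cxcl1 group with both of their receptors. Of the 26, 5 (Ccl25, Ccr3, Ccr9, Cxcl3 and Cxcr1) had means under 0.1 FPKM in every group. At this depth such genes gave few fragments: Cxcr1 had 1 fragment in all 10 kidneys and 2 in all 10 hearts. Small differences between groups were not detectable for them.

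Heart and kidney differed in most of the members that could be tested, as in most genes. Genes averaging 1 FPKM or more over the libraries compared were tested with limma on log2(FPKM + 0.5), with Benjamini-Hochberg adjustment over all genes tested and a threshold of adjusted p 0.05. In vehicle rats 25 members were tested. Of these, 16 (64%) were higher in the heart, where 37.0% of all 12978 genes tested were, and 6 (24%) were higher in the kidney, against 40.0% of all genes. In MaR1 rats, which share no library with that comparison, 25 members were tested. The counts were again 16 and 6, against 37.9% and 40.3% of 13006 genes. The same 21 members passed in both, 15 of them higher in the heart and 6 higher in the kidney, each in the same direction in both. Cxcl13 passed in vehicle rats alone and Ccr2 in MaR1 rats alone. The median difference, heart minus kidney, was 0.84 over the 25 members in vehicle rats and 0.98 in MaR1 rats on the log2 scale, against -0.03 and -0.02 over all genes.

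The filter favours members that are high in 1 organ. In vehicle rats 6 of the 25 (Ackr1, Ackr2, Ackr4, Ccl1, Ccl7 and Xcl1) reached 1 FPKM in the heart alone, and all 6 were among those called higher there. Of the 19 members at or above 1 FPKM in both organs, 10 (52.6%) were higher in the heart and 6 (31.6%) in the kidney. In MaR1 rats 18 members reached 1 FPKM in both, 9 (50%) of them higher in the heart and 6 (33.3%) in the kidney. The shares of all genes under this restriction were not computed, and those given above come from the wider filter. In whole tissue, fewer cells of a type and less RNA per cell cannot be told apart. In vehicle rats, marker genes of several cell types were also higher in the heart: 11 of 14 macrophage and monocyte genes, 10 of 10 endothelial genes, 9 of 10 fibroblast and pericyte genes and 4 of 6 T and NK cell genes passed in that direction, and none in the other. The same held for 5 of 5 mast cell and eosinophil genes, 3 of 7 dendritic cell genes and 2 of 2 neutrophil genes tested. Of all genes tested, 37.0% passed towards the heart and 40.0% towards the kidney. Platelet and erythroid genes had 2 calls towards the heart and 1 towards the kidney of 3 tested, with sums of 19.8 ± 16.3 FPKM in vehicle kidneys and 573 ± 223 FPKM in vehicle hearts (SD, n = 5). Lymphatic endothelial genes had 3 and 1 of 4, with sums of 22.7 ± 4.00 and 20.1 ± 5.88 FPKM (SD, n = 5). In MaR1 rats macrophage and monocyte genes had 10 calls towards the heart and 1 towards the kidney of 14 tested. Dendritic cell genes had 3 and 1 of 7, and neutrophil genes 1 and 0 of 2. The counts of the other lists named here did not change. The part of these cell types in the chemokine differences was not tested.

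The authors' scaling enters these directions. Dividing each library by its own FPKM sum (TPM scaling, chosen after seeing the data) moved the median of all genes by -0.61 on the log2 scale in vehicle rats and by -0.59 in MaR1 rats, towards the kidney. It also let more members past the filter, 35 in vehicle rats and 33 in MaR1 rats. The members called were then 12 higher in the heart and 10 higher in the kidney in vehicle rats, and 12 and 11 in MaR1 rats. Over all genes 11486 of 14369 were called in vehicle rats and 11800 of 14455 in MaR1 rats. How those genes split by direction was not recorded, so a lean of the members relative to all genes cannot be read from these counts. The added kidney calls were members not tested before: Ccl9, Ccl20, Ccl28 and Cxcr3 in both, and Ccl17 in MaR1 rats. In vehicle rats 17 of the 22 calls were kept. Among those that no longer passed were Ccl2, Cxcl11, Cxcl12 and Cxcl13, with differences from 0.03 for Cxcl13 to 0.24 for Ccl2. In MaR1 rats 18 of the 22 calls were kept. Ccl2, Ccr2 and Cxcl12 were among those lost, and Ccr2 turned to -0.11. All differences given here are on the authors' scaling, under which the median gene differed by -0.03 and -0.02.

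**Figure D2:**
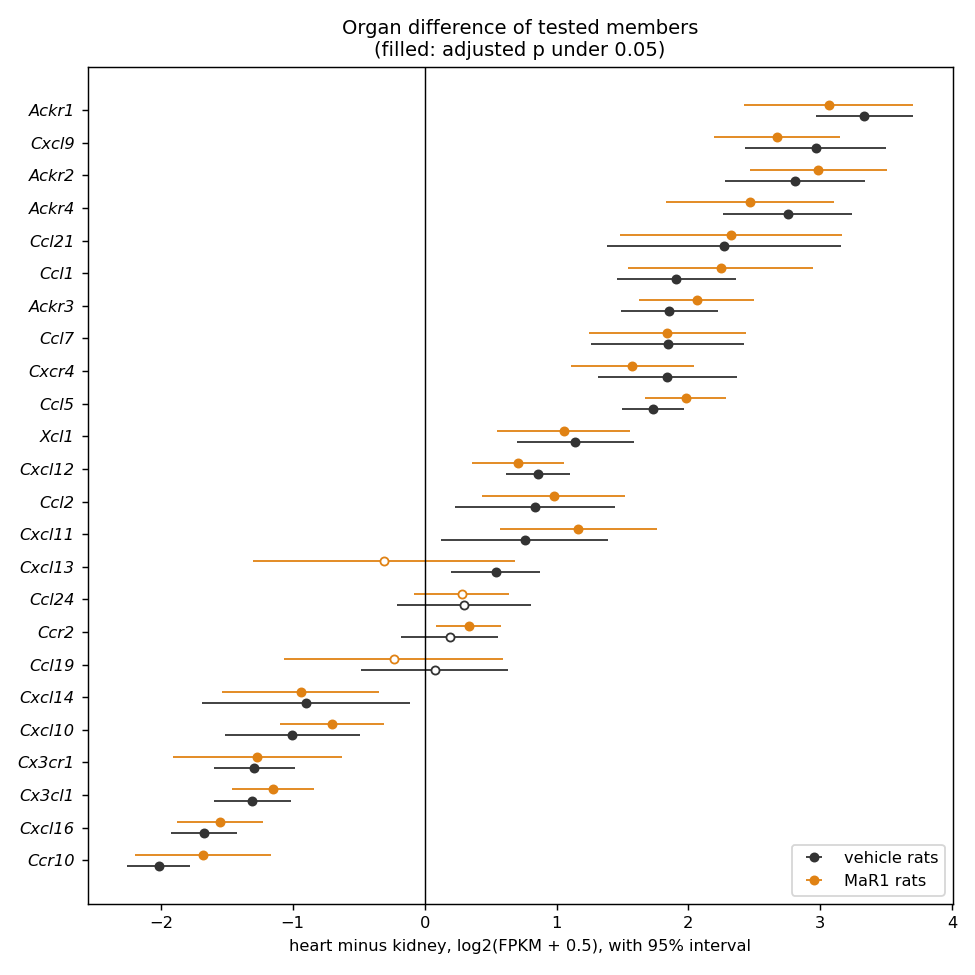
Difference between organs, heart minus kidney on the log2(FPKM + 0.5) scale, for 24 of the 25 members tested, with 95% intervals from limma (dark, vehicle rats; orange, MaR1 rats; filled points have an adjusted p under 0.05). Members to the right of 0 were higher in the heart. The order runs from Ackr1 at 3.33 to Ccr10 at -2.02 in vehicle rats, and Cxcl13 and Ccl19 change side between the treatments without passing in both.

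All 4 atypical receptors were higher in the heart. On the log2(FPKM + 0.5) scale 3 of them, Ackr1, Ackr2 and Ackr4, were among the 4 members with the largest heart differences in vehicle rats. These 3 reached 1 FPKM in the heart alone, so they passed the filter through the organ where they were high. Their values in vehicle kidneys were all under the added 0.5, which affects the size and order of their differences. Ackr1, which binds many inflammatory chemokines on venules and red cells, ranged over 0.0331 to 1.02 FPKM (median 0.169) in the 10 kidneys and 4.23 to 12.1 FPKM (median 6.31) in the 10 hearts. The organs did not overlap. The difference, heart minus kidney as log2 ± SE here and throughout, was 3.33 ± 0.17 in vehicle rats (limma adjusted p = 3.15e-09) and 3.06 ± 0.29 in MaR1 rats (limma adjusted p = 1.81e-06). The platelet and erythroid sum given above was also larger in vehicle hearts than in vehicle kidneys, and its part in the Ackr1 difference was not tested. Ackr2, a scavenger of inflammatory CC chemokines, ranged over 0.0188 to 0.497 FPKM (median 0.0460) in kidneys and 1.94 to 7.12 FPKM (median 4.05) in hearts. Its difference was 2.81 ± 0.24 in vehicle rats and 2.98 ± 0.24 in MaR1 rats. The highest kidney value of Ackr2 lay below the lowest heart value.

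Ackr4 takes up CCL19, CCL21 and CCL25. It ranged over 0.0747 to 0.631 FPKM (median 0.185) in kidneys and 2.30 to 7.14 FPKM (median 3.69) in hearts, with differences of 2.75 ± 0.22 and 2.46 ± 0.29 in vehicle and MaR1 rats. The gene lies inside Acad11 on the opposite strand, and the sources used here do not say whether counting used strand. Acad11 had means of 21.0 FPKM in the kidney and 5.03 FPKM in the heart of vehicle rats, the opposite direction to Ackr4. Ackr3, which takes up CXCL12 and CXCL11, was the only atypical receptor with a kidney group mean above 1 FPKM, at 1.95 to 3.54 FPKM (median 2.88), and reached 8.75 to 18.9 FPKM (median 12.5) in hearts. Its difference was 1.86 ± 0.17 in vehicle rats (limma adjusted p = 6.70e-07) and 2.06 ± 0.20 in MaR1 rats (limma adjusted p = 1.88e-06).

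The kidney of RB039 held the highest kidney value of all 4 atypical receptors. Ackr1 was 1.02 FPKM there, against 0.409 in the next kidney, and Ackr2 was 0.497 FPKM against 0.156. Ackr4 was 0.631 FPKM against 0.344, and Ackr3 was 3.54 against 3.41. Ccl11, an eosinophil attractant chosen here after its values were seen, was 1.42 FPKM in that kidney and 0 in the other 9, where 3 fragments would have given 0.0881 to 0.149 FPKM. The same kidney had the lowest Cx3cr1 (1.61 FPKM), Cx3cl1 (16.96) and Xcl1 (0.283) of the 10, beside the high adipocyte and urothelium sums given above. Their part in these values was not tested. Without that kidney, 21 of the 22 organ calls in MaR1 rats were kept.

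Among hearts, the 4 atypical receptors varied with the animal. Ackr2 was 3.90, 1.94, 2.16, 5.91 and 4.21 FPKM in RB030 to RB034 and 7.12, 3.57, 4.44, 5.90 and 3.04 FPKM in RB035 to RB039. Ackr4 was 4.33, 3.02, 2.31, 7.14 and 3.61 FPKM in the first 5 and 6.76, 2.30, 3.77, 6.48 and 2.44 in the others. RB033, RB035 and RB038 held the 3 highest values of both genes, 1 of them a vehicle rat, so the treatment groups overlapped. In the same order, summed atrial markers were 3083, 2956, 506, 10153 and 5390.0 FPKM and 5482, 692, 1029, 3322 and 391 FPKM. Fibroblast and pericyte markers (10 genes) were 1721, 1628, 1290.2, 2525 and 1955 FPKM with vehicle and 3121, 1209, 1492, 1864 and 1304 FPKM with MaR1. RB033 and RB035 held the 2 highest sums of both marker lists, and RB034 and RB038 came next in both. Ackr3 had the same 3 highest hearts as Ackr2 and Ackr4, but Ackr1 did not. It was highest in RB035 (12.1 FPKM), RB034 (7.40) and RB036 (7.16), with 6.17 in RB033 and 4.75 in RB038. What the marker sums contribute to the receptor levels was not tested.

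The CXCL12 axis was higher in the heart for ligand and receptors alike. Cxcl12 ranged over 20.5 to 38.9 FPKM (median 23.4) in kidneys and 38.2 to 54.9 FPKM (median 44.3) in hearts, overlapping in 1 kidney (RB037), with a difference of 0.86 ± 0.11 in vehicle rats (limma adjusted p = 1.91e-05). Its receptor Cxcr4 ranged over 1.53 to 4.87 FPKM (median 3.55) in kidneys and 8.83 to 12.8 FPKM (median 11.2) in hearts without overlap, with differences of 1.84 ± 0.24 in vehicle rats and 1.57 ± 0.21 in MaR1 rats. Cxcr4 was the only CXC receptor above 1 FPKM in any group mean. As given above, the Cxcl12 difference did not pass under TPM scaling, and Cxcr4 and Ackr3 did.

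Of the CXCR3 ligands, which interferon gamma induces in many cells, Cxcl9 and Cxcl11 were higher in the heart and Cxcl10 was higher in the kidney. Cxcl9 was 1.52, 0.931, 1.001, 1.44 and 0.206 FPKM in the kidneys of RB030 to RB034 and 11.7, 8.75, 10.5, 12.2 and 10.4 FPKM in their hearts. In RB035 to RB039 it was 0.828, 1.01, 1.72, 1.70 and 1.06 FPKM in kidneys and 7.97, 9.42, 17.4, 11.1 and 8.57 FPKM in hearts. Every heart lay above every kidney, and the difference was 2.96 ± 0.24 in vehicle rats, 7.81-fold on the log2(FPKM + 0.5) scale (limma adjusted p = 3.19e-07), and 2.67 ± 0.22 in MaR1 rats. Among the ligands that passed the filter, this was the largest difference towards the heart on that scale in both comparisons.

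Cxcl10 was 14.9, 4.83, 7.76, 10.3 and 6.23 FPKM in vehicle kidneys and 3.74, 3.77, 3.81, 4.42 and 3.47 FPKM in vehicle hearts. In MaR1 rats it was 4.84, 5.36, 7.45, 7.15 and 5.80 FPKM in kidneys and 3.03, 4.33, 4.90, 3.62 and 2.28 FPKM in hearts. Within vehicle rats no kidney lay below a heart. The difference was -1.004 ± 0.23 in vehicle rats (limma adjusted p = 0.00193) and -0.70 ± 0.18 in MaR1 rats (limma adjusted p = 0.00388).

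Cxcl11 was 21.9, 6.91, 10.8, 12.5 and 9.82 FPKM in vehicle kidneys and 19.1, 29.9, 25.3, 12.5 and 16.9 FPKM in vehicle hearts. In MaR1 rats it was 10.4, 8.43, 10.01, 7.43 and 10.2 FPKM in kidneys and 11.4, 32.9, 27.6, 14.5 and 29.1 FPKM in hearts. The organs overlapped in vehicle rats, where the kidney of RB030 exceeded 3 hearts, and did not overlap in MaR1 rats. The difference was 0.76 ± 0.29 in vehicle rats (limma adjusted p = 0.0305), which did not pass without RB031, RB032 or RB034, and 1.17 ± 0.27 in MaR1 rats (limma adjusted p = 0.00201). The receptor gene Cxcr3 stayed at 0.437 to 1.45 FPKM in kidneys and 0.363 to 0.877 FPKM in hearts, under the filter. Cxcl10, which lies between the others on the chromosome, was the only one of the 3 higher in the kidney.

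**Figure D3:**
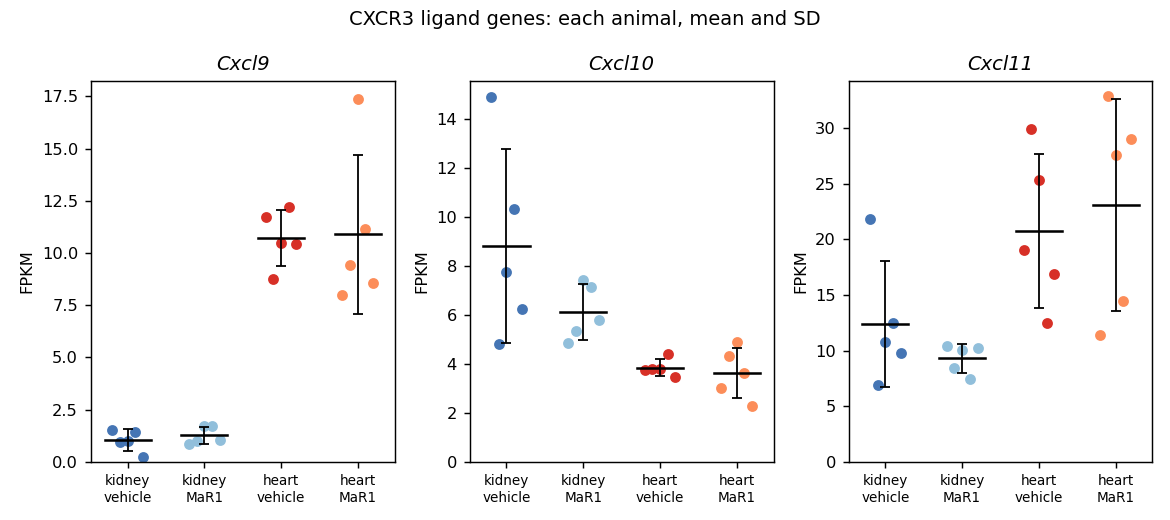
FPKM (vertical axis, linear, from 0) of Cxcl9, Cxcl10 and Cxcl11 in each animal of the 4 groups (points), with the group mean (bar) and SD (error bar, n = 5). Hearts lie above all kidneys for Cxcl9, vehicle kidneys lie above vehicle hearts for Cxcl10, and hearts lie higher for Cxcl11, with overlap in vehicle rats. The kidney of RB030 has the highest Cxcl10 (14.9) and the highest kidney Cxcl11 (21.9).

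Of the 7 CC ligands tested in vehicle rats, 5 (Ccl1, Ccl2, Ccl5, Ccl7 and Ccl21) were higher in the heart and 0 in the kidney. Of all genes tested, 37.0% and 40.0% passed in those directions. The filter shapes this split, as Ccl1 and Ccl7 reached 1 FPKM in the heart alone. Ccl20 and Ccl28 were under the filter and were called higher in the kidney in the fit without it. In that fit Ccl11 and Ccl12 were called higher in the heart. Ccl21, which guides CCR7-bearing cells into lymphatic vessels, was 18.7, 7.73, 13.5, 9.32 and 10.02 FPKM in vehicle kidneys and 44.3, 87.3, 19.2, 80.2 and 94.97 FPKM in vehicle hearts. In MaR1 hearts it was 109, 78.9, 61.4, 24.9 and 105 FPKM, so it varied more than 4-fold between hearts within each treatment. The lymphatic endothelial sum given above was 22.7 FPKM in vehicle kidneys and 20.1 FPKM in vehicle hearts. Yet of the 4 lymphatic genes tested in vehicle rats 3 were higher in the heart and 1 in the kidney, with a median difference of 1.37. Their part was not tested. The difference of Ccl21 between organs was 2.27 ± 0.40 in vehicle rats and 2.32 ± 0.38 in MaR1 rats (limma adjusted p = 0.000264 and 0.000172). Its neighbour Ccl19 (both lie with Ccl27 on chromosome 5, from 56941402 to 56981686), another CCR7 ligand, ranged over 2.94 to 9.79 FPKM (median 5.63) in kidneys and 2.27 to 13.3 FPKM (median 5.14) in hearts and did not pass in either comparison. The 95% interval of the Ccl19 difference was -0.48 to 0.63 in vehicle rats and -1.06 to 0.60 in MaR1 rats.

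The monocyte attractants Ccl2, Ccl7 and Ccl12 lie in a cluster with Ccl11 and Ccl1 on chromosome 10, from 67005424 to 67131159 in the table's coordinates. Ccl2 ranged over 2.69 to 6.20 FPKM (median 4.53) in kidneys and 4.52 to 16.6 FPKM (median 8.73) in hearts, with overlap. Its difference was 0.84 ± 0.28 in vehicle rats (limma adjusted p = 0.0157), which did not pass without RB031 or RB034 or with TPM scaling. Ccl7 separated the organs more clearly, at 0.430 to 1.09 FPKM (median 0.549) in kidneys and 1.31 to 5.84 FPKM (median 4.51) in hearts, with differences of 1.84 ± 0.27 and 1.84 ± 0.27. Ccl12 was also higher in the heart in the fit without a filter, at 0 to 0.297 FPKM (median 0.150) and 0.277 to 1.86 FPKM (median 1.15) (limma adjusted p = 0.00182 in vehicle rats). Their receptor Ccr2 lay close to 1 FPKM in both organs, with differences of 0.19 ± 0.17 in vehicle rats (limma adjusted p = 0.316) and 0.33 ± 0.11 in MaR1 rats (limma adjusted p = 0.0174), where it did not pass without RB036.

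Ccl5, a T cell and monocyte attractant, was 2.36, 1.79, 2.24, 1.97 and 1.85 FPKM in vehicle kidneys and 6.87, 9.16, 8.16, 6.74 and 8.94 FPKM in vehicle hearts. Its difference of 1.73 ± 0.11 had the smallest SE of the 25 members tested (limma adjusted p = 2.11e-08), and no heart in any group overlapped a kidney. Ccl1, the CCR8 ligand, gave 12 fragments in all 10 kidneys and 234 in all 10 hearts, at 0.908 to 4.99 FPKM (median 1.78) in hearts. Xcl1, which T and NK cells secrete, was 1.84, 5.09, 2.33, 2.81 and 2.29 FPKM in vehicle hearts and 1.06, 1.12, 1.03, 0.754 and 0.846 FPKM in vehicle kidneys, with a difference of 1.14 ± 0.20. The summed T and NK cell markers (16 genes) were 8.35 to 17.6 FPKM in kidneys and 15.1 to 24.9 in hearts. Ccl24, an eosinophil attractant, did not pass in either comparison (0.30 ± 0.23 and 0.28 ± 0.16).

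Members higher in the kidney included both chemokines that are made as transmembrane proteins. Cxcl16 was 76.1, 58.8, 64.3, 68.4 and 57.00 FPKM in vehicle kidneys and 20.7, 18.4, 17.1, 25.3 and 18.96 FPKM in vehicle hearts. In MaR1 rats it was 55.3, 56.1, 51.8, 47.6 and 63.95 FPKM in kidneys and 24.2, 14.7, 18.5, 22.1 and 14.2 FPKM in hearts. The lowest kidney lay above the highest heart, and the differences were -1.67 ± 0.11 in vehicle rats (limma adjusted p = 5.22e-08) and -1.55 ± 0.15 in MaR1 rats. Cx3cl1, or fractalkine, ranged over 16.96 to 28.2 FPKM (median 26.1) in kidneys and 7.91 to 14.1 FPKM (median 9.97) in hearts, again without overlap. Its differences were -1.31 ± 0.13 and -1.15 ± 0.14. Cxcl16 overlaps Zmynd15 on the opposite strand, whose means were 3.97 FPKM in vehicle kidneys and 0.502 FPKM in vehicle hearts.

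The receptor of fractalkine was also higher in the kidney. Cx3cr1, carried by monocytes, resident macrophages and some lymphocytes, ranged over 1.61 to 4.30 FPKM (median 3.42) in kidneys and 0.453 to 2.29 FPKM (median 0.996) in hearts. It was higher in the kidney by 2.45-fold in vehicle rats and 2.41-fold in MaR1 rats on the log2(FPKM + 0.5) scale (limma adjusted p = 3.77e-06 and 0.00192). The summed macrophage and monocyte markers (15 genes) ran the other way, at 83.4 to 176 FPKM in kidneys and 225 to 502 in hearts. Cxcr6, the receptor of CXCL16, was at 0.269 to 0.686 FPKM in kidneys and 0.218 to 0.534 FPKM in hearts. Cxcr6 overlaps Fyco1 on the opposite strand, whose means were 7.29 FPKM in vehicle kidneys and 18.4 FPKM in vehicle hearts, where Cxcr6 had means of 0.462 and 0.372 FPKM. An unnamed locus on the same strand as Cxcr6 also overlaps it, with means of 0.818 and 0.950 FPKM. Reads of these genes cannot be told apart from its own here.

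Ccr10 and its ligand Ccl28 were both higher in the kidney. Ccr10 ranged over 5.76 to 11.6 FPKM (median 9.19) in kidneys and 1.30 to 3.49 FPKM (median 1.96) in hearts, with differences of -2.02 ± 0.11 in vehicle rats (limma adjusted p = 6.27e-09) and -1.68 ± 0.23 in MaR1 rats. It was the highest conventional chemokine receptor in the kidney, on the FPKM scale. Ccl28, a chemokine of mucosal epithelia, ranged over 1.17 to 2.18 FPKM (median 1.60) in kidneys. It was at 0 in 9 of 10 hearts, where 3 fragments would have given 0.0659 to 0.0984 FPKM, and the heart of RB039 held its only fragment. In the fit without a filter the Ccl28 difference passed in both comparisons (limma adjusted p = 5.04e-09 and 6.43e-09). Ccl20, the CCR6 ligand, was 0.337 to 2.59 FPKM (median 1.17) in kidneys and 0 to 0.324 FPKM (median 0.130) in hearts, and passed in the same way.

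Cxcl14 and Cxcl13 were less stable. Cxcl14, a ligand of epithelia and fibroblasts, ranged over 8.77 to 17.4 FPKM (median 12.7) in kidneys and 2.68 to 13.5 FPKM (median 6.86) in hearts. Its difference of -0.90 ± 0.36 in vehicle rats (limma adjusted p = 0.0378) did not pass without RB030 or RB032, nor with quantile normalization. Cxcl13, the B cell attractant, differed by 0.54 ± 0.15 in vehicle rats (limma adjusted p = 0.00715) and by -0.31 ± 0.45 in MaR1 rats (limma adjusted p = 0.545). Whether the Cxcl13 difference between organs depends on treatment was tested as an interaction, with a value of -0.85 ± 0.50 and a limma adjusted p of 0.959.

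Among the 29 members under the filter of the organ comparisons, the fit without a filter called 9 in vehicle rats (5 higher in the heart and 4 in the kidney) and 16 in MaR1 rats (5 and 11). Over all genes 56.4% and 57.1% were called in those fits. Most of these members lay below 1 FPKM in both organs.

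The other comparison of the design sets MaR1 against vehicle in each organ. In the kidney 20 members were tested and 0 passed, as did 0 of all 12446 genes (0%). At an unadjusted p under 0.05 there were 2 members and 840 genes (6.75%). No member had vehicle and MaR1 groups that did not overlap, whereas 1.23% of all genes tested did. Limma voom on recovered fragments called 0 members as well. The differences, MaR1 minus vehicle, were positive in 8 members and negative in 12, with a median of -0.14 against 0.00 over all genes. Their 95% intervals, which are not adjusted over genes, had a median half-width of 0.42 on the log2 scale. Differences of that size or smaller were mostly not detectable with 5 animals a group. Passing the adjusted threshold would have taken larger differences still.

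The 2 members with the smallest p in the kidney were Cxcl16 and Cxcl13. Cxcl16 had MaR1 values of 55.3, 56.1, 51.8, 47.6 and 63.95 FPKM against the vehicle values of 76.1, 58.8, 64.3, 68.4 and 57.00 FPKM. The difference was -0.24 ± 0.10 (limma adjusted p = 0.721), with 4 of 5 MaR1 kidneys below all vehicle kidneys and RB039 within their range. Cxcl13 was 1.55, 1.09, 1.88, 1.39 and 1.42 FPKM with vehicle and 2.05, 6.70, 3.86, 3.19 and 0.937 FPKM with MaR1. Here 4 of 5 MaR1 kidneys lay above all vehicle kidneys, and RB039 lay below them all. The difference was 0.78 ± 0.35 (limma adjusted p = 0.734).

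Markers of the inner kidney are set beside these values. Summed inner medulla and thin limb markers (10 genes) were 49.3, 126, 61.1, 71.1 and 112 FPKM with vehicle and 174, 158, 214, 251 and 65.6 FPKM with MaR1. The 4 MaR1 kidneys with high Cxcl13 were the 4 with the highest sums, and RB039 had a sum within the vehicle range. Of the markers tested, 9 of 9 inner medulla genes and 4 of 4 urothelium genes had positive differences and 8 of 8 podocyte genes negative ones, none past the threshold. Summed B cell and plasma cell markers (10 genes) were 4.34, 1.84, 2.18, 2.83 and 2.31 FPKM with vehicle and 3.52, 2.86, 3.69, 3.12 and 1.94 FPKM with MaR1, and overlapped. The part of these markers in the Cxcl13 and Cxcl16 values was not tested.

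Next by p in the kidney were Ccl20, Ccl28 and Cxcl10, all lower on average with MaR1. Ccl20 was 2.59, 1.16, 1.37, 1.35 and 1.18 FPKM with vehicle and 0.996, 1.49, 0.337, 0.786 and 1.01 FPKM with MaR1, a difference of -0.52 ± 0.24 (limma adjusted p = 0.743). Ccl28 was 1.86, 1.72, 2.18, 1.59 and 1.46 FPKM and 1.65, 1.54, 1.43, 1.17 and 1.60 FPKM, a difference of -0.19 ± 0.11 (limma adjusted p = 0.795). For Cxcl10 the difference was -0.41 ± 0.25 (limma adjusted p = 0.809). Vehicle and MaR1 groups overlapped in all 3 genes.

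The kidney of RB030, a vehicle rat, was high in many members. Among the 28 members with values, it held the highest of the 10 kidneys for 10 (among them Ccl5, Ccl7, Ccl19, Ccl20, Ccr2, Cxcl10, Cxcl11, Cxcl14 and Cxcl16) and lay above the median kidney for 23. No other kidney was highest for more than 5. Its summed macrophage and monocyte markers were 176 FPKM against 83.4 to 173 in the other 9 kidneys. Its T and NK cell sum was 17.6 FPKM against 8.35 to 14.6, and its proximal tubule sum was 8794 FPKM against 11575 to 15833. Their part was not tested. Without RB030 the Cxcl10 difference went from -0.41 to -0.20 and no member had an unadjusted p under 0.05. Among all genes 886 of 12435 had such a p.

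Leaving out both RB030 and RB039 from the kidney comparison, chosen after seeing the data, again called 0 members, with 4 at an unadjusted p under 0.05. Over all genes 2070 of 12421 had such a p, against 840 of 12446 with all kidneys. Without RB039 alone Cxcl13 differed by 1.09 (limma adjusted p = 0.108). In that fit 2 members and 1757 of 12443 genes had an unadjusted p under 0.05. Without both kidneys Cxcl13 differed by 1.11 (limma adjusted p = 0.109), Cxcr4 by 0.72 (limma adjusted p = 0.139), Cxcl16 by -0.24 (limma adjusted p = 0.197) and Ccr10 by -0.43 (limma adjusted p = 0.179). Without the 4 kidneys in which Upk1a exceeded 1 FPKM (RB034, RB036, RB038 and RB039), 0 members passed and 5 had an unadjusted p under 0.05. Of all genes 1213 of 12466 had such a p in that fit.

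**Figure D4:**
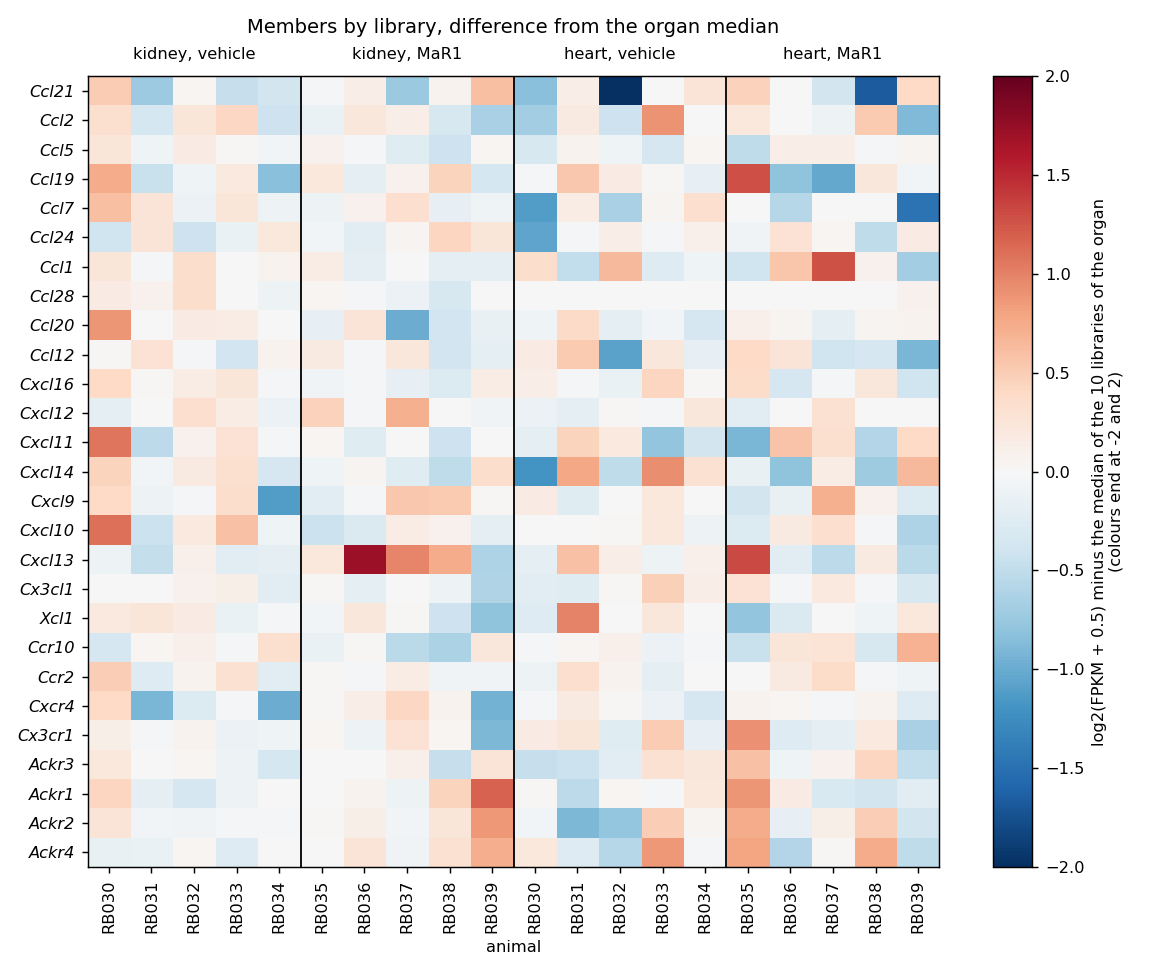
Members with a mean of at least 1 FPKM in a group (27 of the 28, rows) in each of the 20 libraries (columns, by group and animal), coloured by its log2(FPKM + 0.5) minus the median of the 10 libraries of that organ; red is above and blue below, and colours end at -2 and 2. The kidney of RB030 is red in most rows, the kidney of RB039 is red in the rows of Ackr1, Ackr2 and Ackr4, and Cxcl13 is red in the kidneys of RB036, RB037 and RB038.

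In the heart 26 members were tested and 0 passed, as did 0 of all 12237 genes (0%). At an unadjusted p under 0.05 there were 0 members and 563 genes (4.60%). No member had treatment groups that did not overlap, against 0.842% of all genes. Limma voom on recovered fragments again called 0 members. Differences were positive in 13 members and negative in 13, with a median of 0.01 against 0.01 over all genes and a median half-width of the 95% interval of 0.52.

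The smallest p in the heart belonged to Xcl1. It was 1.84, 5.09, 2.33, 2.81 and 2.29 FPKM with vehicle and 1.12, 1.81, 2.34, 2.15 and 2.76 FPKM with MaR1, a difference of -0.38 ± 0.24 (limma adjusted p = 0.99998). The value of RB031 was the highest and that of RB035 the lowest, and the other 8 animals overlapped. Ackr2, with the values given above, differed by 0.40 ± 0.29 and Ackr3 by 0.22 ± 0.22, both at a limma adjusted p of 0.99998. Cxcl16 differed by -0.12 ± 0.16 and Ccl24 by 0.16 ± 0.23. Precision was best for Cxcr4 and Cxcl12, whose 95% intervals were -0.18 to 0.25 and -0.20 to 0.27, and poorest for Ccl21, at -0.84 to 1.35.

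Ccl2, the monocyte attractant most studied in hypertension, did not pass in either organ. In the heart it was 5.22, 9.95, 6.43, 16.6 and 8.78 FPKM with vehicle and 10.2, 8.68, 8.11, 12.7 and 4.52 FPKM with MaR1, a difference of -0.04 ± 0.31. In the kidney Ccl2 was 5.73, 3.43, 5.40, 6.20 and 3.26 FPKM and 4.08, 5.37, 4.99, 3.52 and 2.69 FPKM, a difference of -0.19 ± 0.21. The groups overlapped in both organs, with 95% intervals of -0.73 to 0.64 and -0.65 to 0.27. For Ccr2 the heart difference was 0.07 ± 0.13, and in the kidney its mean lay under the filter.

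Without the 3 hearts with atrial marker sums above 5000 FPKM (RB033, RB034 and RB035), a choice made after seeing the data, 24 members were tested and 0 passed. Ackr2 then differed by 0.60, with an unadjusted p of 0.0410 and a limma adjusted p of 0.562. Among all genes 1074 of 12138 had an unadjusted p under 0.05, against 563 of 12237 with all hearts. The heart of RB035 held the highest heart value of 8 of the 28 members (among them Ackr1, Ackr2, Ackr3, Ccl19, Ccl21, Cx3cr1 and Cxcl13), beside the highest fibroblast and macrophage sums of any heart. The part of those cells was not tested.

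**Figure D5:**
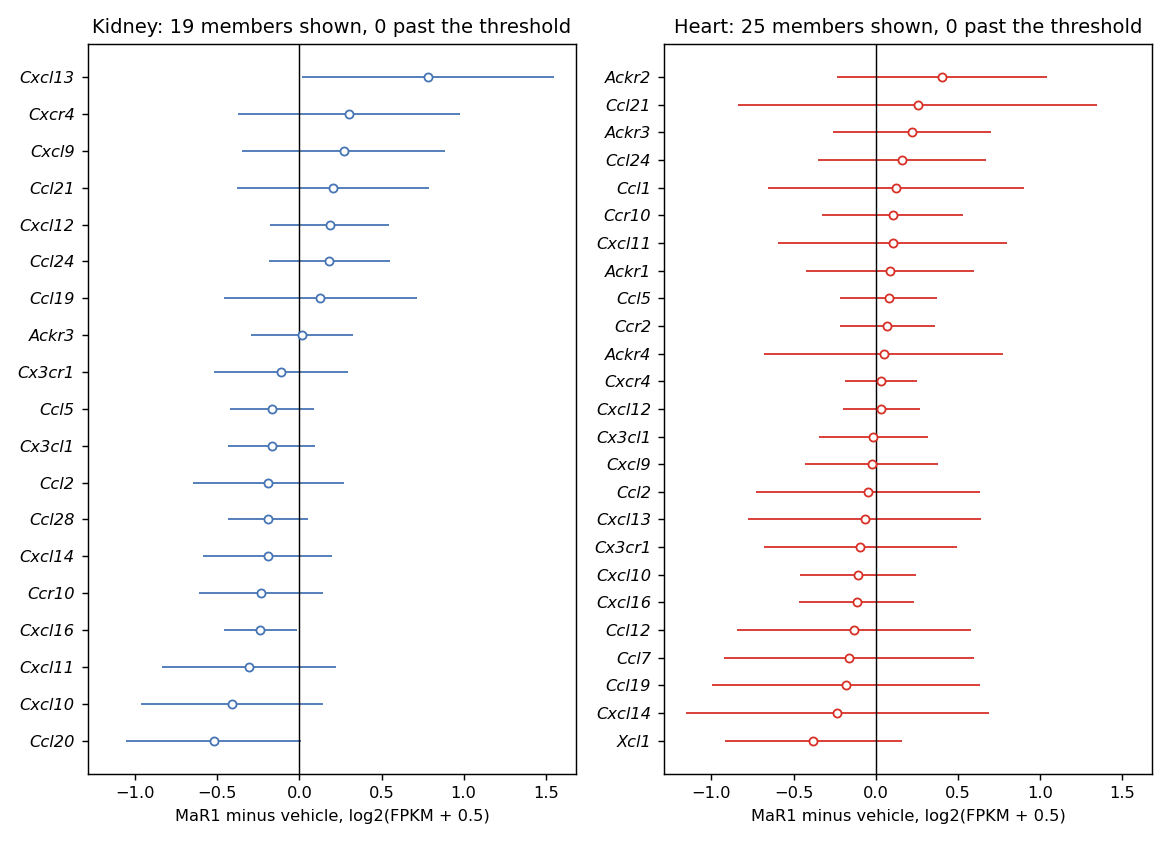
Response to MaR1, MaR1 minus vehicle on the log2(FPKM + 0.5) scale, with 95% intervals from limma, for 19 of the 20 members tested in the kidney (left) and 25 of the 26 tested in the heart (right). Open points did not pass the threshold, which holds for all. Only the kidney intervals of Cxcl13 and Cxcl16 leave out 0 before adjustment.

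The response in the heart was set against that in the kidney with an interaction term. Of 25 members tested 0 passed, as did 0 of 12984 genes (0%), and 0 members and 714 genes (5.50%) had an unadjusted p under 0.05. The smallest p was that of Cxcl13, given above. Members under the filter were compared by exact permutation test on 5 against 5 animals. Of 34 so tested in the kidney 2 had p under 0.05, and of 28 in the heart 1 did. The permutation test was not run on other genes. In the limma fit without a filter 1331 of 22442 genes in the kidney and 973 of 21725 in the heart had an unadjusted p under 0.05. The members under 0.05 by permutation are named here after their values were seen. The kidney differences of Ackr4 (0.34) and Ccl3 (0.51) had an exact permutation p of 0.0476 each, and the heart difference of Xcr1 (-0.33) had 0.0397. In the fit without a filter their limma adjusted p were 0.823, 0.823 and 0.987. RB039 had the highest kidney value of Ackr4.

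The other genes of the chemokine system are given by counts. Of 28 tested genes of chemokine receptor signalling (G protein subunits, arrestins, receptor kinases and Rac regulators), 14 were higher in the heart and 2 in the kidney in vehicle rats, with a median of 0.27. Of 15 leukocyte adhesion genes tested, 8 were higher in the heart and 2 in the kidney. Of 10 genes tested among further chemokine-like ligands and binding partners outside the naming rule, 3 were higher in the heart and 5 in the kidney. The all-gene shares were 37.0% and 40.0%. In MaR1 rats the counts were 16 and 3 of 28, 8 and 4 of 16, and 4 and 5 of 10. In the comparisons of MaR1 with vehicle and in the interaction, 0 genes of these 3 lists passed.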

How the data were processed

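The authors deposited 1 table of FPKM for 30560 genes in 20 libraries. Per the submitters' processing notes the tools were fastp (version not given), HISAT2 2.0.5, StringTie 1.3.3b and featureCounts 1.5.0-p3; the sources used here do not give build or strandedness. Multiplied by gene length and a library constant, 100% of the 371175 values above 0 came out as whole fragments within 0.01, so depth is known.

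Tests used log2(FPKM + 0.5), a scale on which low genes change less than in FPKM, with limma 3.58.1 in R 4.3.3 (trended variance, two-sided) on genes with a mean of at least 1 FPKM. P-values were adjusted over all genes tested. Members under the filter were tested in a fit without it and by exact permutation, with no adjustment over members alone; planned marker correlations were replaced by values side by side. Kidney and heart with the same number came from the same rat, yet the main fits carry no block. Same-animal correlations across 12984 genes were -0.02 to 0.14, with 2 of 10 above 0.1. Named with values are members with a mean of at least 1 FPKM in a group; per-library values follow level and p.

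The alternatives comprised pseudocounts 0.1 and 1, filters at none, 0.2 and 5 FPKM, quantile normalization, limma voom on recovered fragments, library weights, the animal as block (statmod 1.5.0), leaving out each animal, and leaving out kidneys with Upk1a above 1 FPKM. TPM scaling and the other exclusions were chosen after seeing the data. Members and lists were chosen with earlier results of these data known. Steps were tested on simulated data. Of 252 list symbols 238 matched. The counts cover all members, of which 1 is not reported by name or shown in the figures here.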

Additional observations from a re-analysis of the deposited data

Results flagged for a closer look

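The members with values were screened for a single animal lying far from the others of its group, with a gap to the next value above 0.710 of the group's range. Over 112 sets of 5 values 8 were marked. Chance marks about 1 in 20 sets of normally distributed values, and FPKM resting on few fragments need not be so distributed. A set with a single value above 0, as for Ccl28 in MaR1 hearts, is always marked. One with all values at 0, as for Ccl28 in vehicle hearts, never is. In the kidney, Ackr2 of RB039 was the highest with MaR1 at 0.497 FPKM and Ackr2 of RB030 the highest with vehicle at 0.156 FPKM. Ccl20 of RB030 was the highest vehicle kidney at 2.59 FPKM.

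In the heart, Cxcl13 of RB035 was the highest with MaR1 at 6.05 FPKM, against 2.48 in the next. Ccl24 of RB030 was the lowest with vehicle at 1.09 FPKM. Cxcr4 of RB039 was the lowest with MaR1 at 9.34 FPKM. The marked values of Ccl20 in RB037 (0.0532 FPKM, lowest) and of Ccl28 in RB039 (0.0332 FPKM, the only value above 0) rest on 1 fragment each.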

How the results depend on the processing

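The calls between organs depended mainly on which members were tested and on scaling. With only genes of at least 5 FPKM, 13 members passed in vehicle rats and 12 in MaR1 rats, 8 of them higher in the heart in each. Of all genes 6729 of 8370 and 6845 of 8378 passed there. Without a filter Cxcl11 and Cxcl14 no longer passed in vehicle rats, 38 members passed in MaR1 rats, 17 of them higher in the kidney, and at 0.2 FPKM 13 were higher in the kidney. In MaR1 rats 12822 of 22444 genes passed without a filter and 11931 of 16105 at 0.2 FPKM. The split of all genes by direction was not recorded for these settings. With TPM scaling 10 (vehicle) and 11 (MaR1) were higher in the kidney, the added ones being members newly past the filter.

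Leaving out each animal gave 19 to 22 members in vehicle rats (14 to 16 higher in the heart, 5 to 6 in the kidney) and 20 to 22 in MaR1 rats (14 to 16 and 6). Without RB030, RB032 or RB037, Ccl1 fell under the filter. With the animal as replicate block the counts were 22 and 22, and the block changed no other call. The MaR1 counts stayed at 0 in 22 alternatives for the kidney, 21 for the heart and 21 for the interaction, with smallest limma adjusted p of 0.108, 0.562 and 0.257. The Ccl24 response in the heart ran from -0.058 without RB030 to 0.29 without RB038, against 0.16 with all hearts, and so reversed without RB030; the cause was not tested. With 5 animals a group, precision for single members is limited as the intervals show.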
